A study of Sus scrofa with 24 samples.

Results

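The genes described here are those of the pig whose symbol starts with NDUFA, NDUFB, NDUFC, NDUFS, NDUFV or NDUFAF, the nuclear genes named for respiratory complex I. The rule uses the symbol and no measured value. It found 48 of the 38882 genes with counts. With at least 1 CPM (reads of a gene scaled to its library's total) in at least 3 libraries required, 47 of the 48 were tested, among 16326 genes in all. NDUFA4L2 was the one that did not pass.

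Complex I, or NADH:ubiquinone oxidoreductase, takes electrons from NADH, passes them along iron-sulfur clusters to ubiquinone and pumps protons across the inner mitochondrial membrane. Its matrix arm holds the N module, where NADH is oxidised, and the Q module, where ubiquinone is reduced, and its membrane arm pumps the protons. The core subunits do the catalysis, the accessory subunits surround and stabilise them, and assembly factors help to build the enzyme without staying in it. Neurons depend on this enzyme for most of their ATP, and inherited defects of it are a frequent cause of early-onset brain disease.

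RNA of 24 hippocampi from piglets 14 days old, bred from PIC Camborough dams and PIC 359 sires, was sequenced from polyadenylated RNA. Piglets were small for gestational age (SGA) or appropriate for gestational age (AGA) by birth weight, and each SGA piglet had an AGA littermate of the same sex. Both piglets of a pair received the same diet, a control formula (CON) or a formula with hydrolyzed fat (HF), so that the 12 litters gave 4 groups of 6 piglets (AGA CON, SGA CON, AGA HF, SGA HF). All piglets were fed formula, SGA arose naturally within litters rather than by a treatment, and litters 1 to 6 and 7 to 12 came in as 2 cohorts. Counts on listed genes ranged from 6017336 to 9284355 per library, with a median of 7346072.

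Markers of brain tissue were present in all libraries. Summed over 7 neuron markers the median was between 7503 and 8542 CPM in the 4 groups, with SLC17A7, the vesicular glutamate transporter, the most abundant at 3425 CPM. Of the glial markers, GFAP was at a median of 8095 CPM and MBP at 6288 CPM. A pair of libraries stood apart: the neuron markers summed to 4044 CPM in AGA CON replicate 2 and 4987 CPM in AGA HF replicate 4, against 6928 to 9794 CPM in the other libraries. In AGA CON replicate 2, 6 of 47 complex I genes were above their own mean over the libraries. In AGA HF replicate 2 it was 43 of 47. SGA CON replicate 6 had the highest neuron sum, 9794 CPM, the lowest TMM scaling factor, 0.899, and the lowest NDUFA12 value, 77.0 CPM. Among the fits without 1 litter or library, it was left out only together with its littermate.

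Levels between genes are given as CPM per kilobase of exon, each as the median of the 24 libraries. The paper puts the average RNA quality number of these samples down to pre-spliced RNA. How RNA quality and the selection of polyadenylated RNA affect levels per kb was not tested. Orders between genes of unlike exon length, such as NDUFB1 (288 bases) and NDUFS1 (2616 bases), carry this limit. The core subunits given here lay between 30.7 (NDUFS1, the largest iron-sulfur protein of the N module) and 155 (NDUFS8, an iron-sulfur protein of the Q module) CPM per kb. Between them stood NDUFV1 at 129, NDUFS3 at 91.4, NDUFV2 at 79.7 and NDUFS7 at 68.7 CPM per kb. NDUFV1 binds NADH and the flavin cofactor, NDUFS7 lies at the ubiquinone site, and NDUFV2 carries an iron-sulfur cluster. In this order the ranges over the libraries of neighbours overlapped, apart from NDUFS1, which lay below the range of NDUFS7.

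Among all 48 genes, the highest level belonged to NDUFA4 at 546 CPM per kb, which carries a complex I name but is known as a component of cytochrome c oxidase. NDUFA3 followed at 282, NDUFB10 at 278 and NDUFB9 at 230 CPM per kb, all accessory subunits of the membrane arm. The 20 membrane-arm subunits had a median of 121 CPM per kb and the 8 N-module accessory subunits of 74.9 CPM per kb. The 8 NDUFAF assembly factors were lower, with a median of 8.18 CPM per kb, though NDUFAF8 stood at 83.2 and NDUFAF3 at 70.0 CPM per kb.

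**Figure D1:**
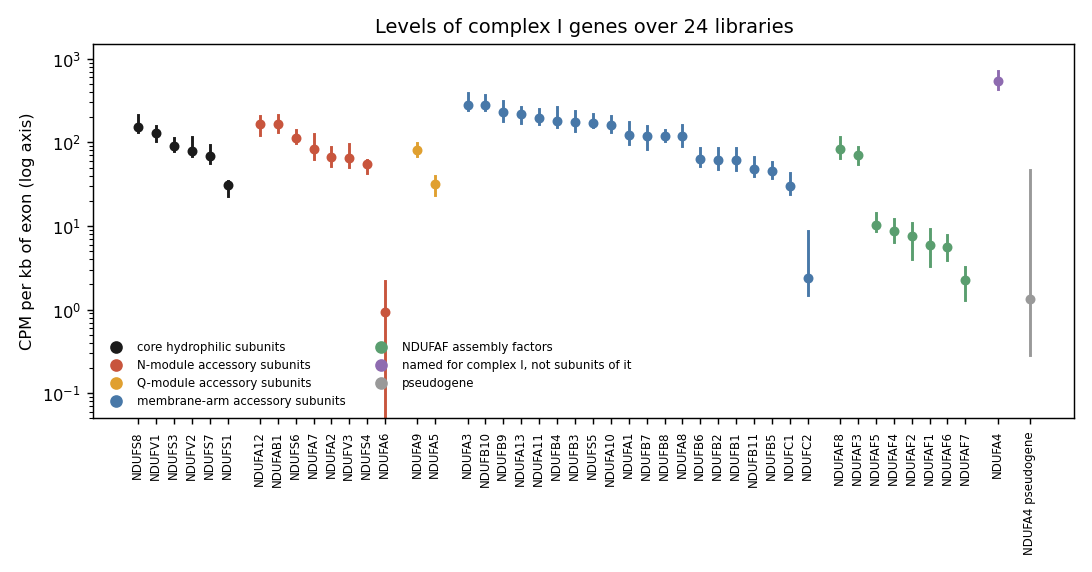
Level of the complex I genes in CPM per kb of exon, on a log axis, grouped by role; points are medians of 24 libraries and lines run from the lowest to the highest library. NDUFA4 is highest at 546 CPM per kb, and 6 of the 8 assembly factors lie under the core subunits; the line of NDUFA6 runs off the axis because 1 library had no count, and NDUFA4L2, with a median of 0, and 1 other member are not drawn.

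A few members were hardly counted. NDUFA4L2, a relative of NDUFA4, had no count in 21 of 24 libraries and at most 5 counts in any. NDUFA6, an accessory subunit that binds the mitochondrial acyl carrier protein, was at a median of 0.93 CPM per kb and had 0 to 15 counts per library. The NDUFA4 pseudogene was at 1.34 and NDUFAF7, a methyltransferase that acts in assembly, at 2.26 CPM per kb. These levels are those of reads assigned to the gene models of Sscrofa10.2, where the counting tool by default leaves out reads that align to several places, and 3 counts correspond to 0.319 to 0.494 CPM. The few counts of these 4 genes therefore give no firm level.

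Most members varied little between piglets of a group. The median within-group SD of log2 CPM was 0.17 over the 47 members and 0.27 over all genes tested. NDUFA9, which lies at the joint of the arms, had the smallest at 0.11, and the NDUFA4 pseudogene the largest at 1.21.

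NDUFA12 was singled out among the members because its diet difference was already known from these data. It is an accessory subunit that joins the enzyme late, at the place its paralogue, the assembly factor NDUFAF2, has held before. The gene lies on chromosome 5 from 92639666 to 92664026 on the plus strand of Sscrofa10.2, with 4 exons and 637 exon bases. In AGA CON piglets it ranged from 88.4 to 124 CPM (median 105), and in SGA CON piglets from 77.0 to 113 CPM (median 96.8). In AGA HF piglets it ranged from 102 to 133 CPM (median 110), while the SGA HF piglets lay between 101 and 121 CPM (median 111). The lowest values were all on CON, no HF piglet was under 101 CPM, and the diet groups overlapped.

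Averaged over littermates, NDUFA12 ran from 105 to 127 CPM in the 6 HF litters and from 88.0 to 111 CPM in the 6 CON litters. Of the HF litters, 3 lay above the highest CON litter. Over the 24 libraries the means were 113 ± 11.3 CPM (SD, n = 12) on HF and 101 ± 13.8 CPM (SD, n = 12) on CON. With group, sex and 5 surrogate variables in edgeR's quasi-likelihood fit, NDUFA12 rose on HF by a log2 fold change of 0.24 (SE 0.052), with an adjusted p of 0.224 (FDR over all genes and 7 contrasts). It was sixth by p among the genes tested. The threshold, an FDR p under 0.4, is the lenient one of the study, so a sizeable share of calls can be false.

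**Figure D2:**
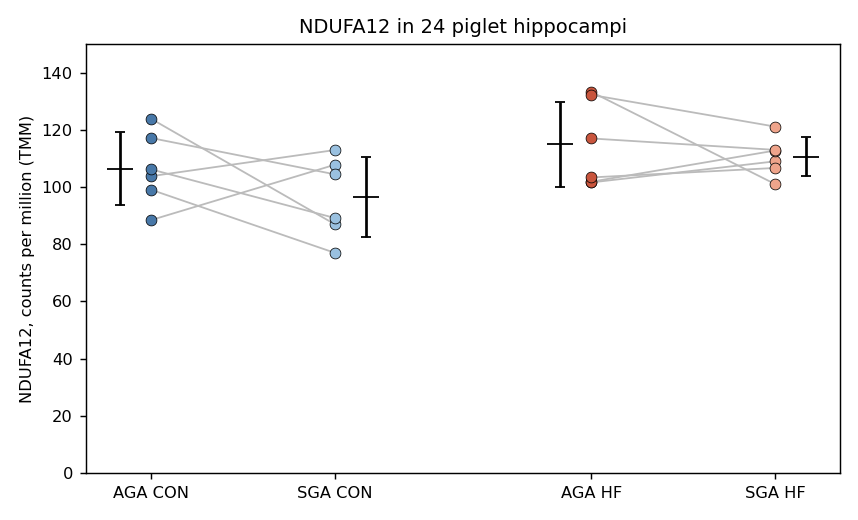
NDUFA12 in each piglet, in TMM-normalised CPM; grey lines join littermates, and bars beside the points give the group mean and SD (n = 6). HF piglets run from 101 to 133 CPM and CON piglets from 77.0 to 124 CPM, with overlap.

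NDUFA12 was the 1 member of 47 called up-regulated on HF, where 0.116% of all genes tested were called higher. No member was called down-regulated, against 0.0429% of all genes. In fits without 1 litter or library the number of members called on HF ran from 0 to 7, with the 7 without litter 5. NDUFAB1, NDUFAF8, NDUFB4 and NDUFB9 were each called in 1 of 28 alternatives. The share of all genes called in those fits is not given here, so no excess is read from them. Littermates shared a diet, so that diet varied between litters, and with the counts of littermates summed, 6 litters against 6, the log2 fold change of NDUFA12 was 0.15 (SE 0.066, edgeR adjusted p = 0.999). No gene at all was called in that fit, in which 3.46% of genes had an unadjusted edgeR p under 0.05. An exact two-sided permutation test on litter means, which uses 924 splits and cannot go below 0.00216, gave a difference of 0.16 on the log2 scale with p = 0.0325. Since NDUFA12 was picked with its diet difference known, these p-values describe it and are no independent evidence. Without surrogate variables the log2 fold change was 0.15 (adjusted p = 0.848), and within the cohorts it was 0.15 in the first (adjusted p = 0.973) and 0.16 in the second (adjusted p = 0.904).

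NDUFA12 thus lay above 0 on HF in both cohorts, and its call was lost without the surrogate variables. Without AGA CON replicate 2 the call held while the log2 fold change fell to 0.15 (SE 0.045, edgeR adjusted p = 0.306). The call was lost without AGA HF replicate 2, at 0.17 (edgeR adjusted p = 0.536), and without litter 1, 2, 7 or 9, at 0.20 to 0.23 (edgeR adjusted p from 0.425 to 0.527). NDUFAF2 was weakly expressed, at a median of 2.83 CPM, and its diet difference of 0.09 had an SE of 0.20 (edgeR adjusted p = 0.964).

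More members lay above 0 on HF than genes in general. Of all 47, 41 had a log2 fold change above 0 on HF, with a median of 0.06, where 50.8% of all genes were above 0 and the median was 0.0020. At an unadjusted edgeR p under 0.05, 7 members were higher on HF (14.9%, against 3.59% of all genes) and 0 were lower (against 3.51%). NDUFA12 is among them, and without it 40 of 46 lay above 0, with a median of 0.06, and 6 were higher at such a p. With the counts of littermates summed, 32 of 47 were above 0 and the median was 0.030, where 49.6% of all genes were above 0 and the median was -0.0010. Members measured in the same libraries are not independent, so these counts carry no test.

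After NDUFA12 the smallest p-values belonged to NDUFAB1, NDUFB9, NDUFB4 and NDUFS7. NDUFAB1, the mitochondrial acyl carrier protein, was at 118 ± 13.0 CPM on CON and 124 ± 14.2 CPM on HF (SD, n = 12), a log2 fold change of 0.12 (SE 0.047). NDUFB9, a membrane-arm subunit, was at 156 ± 15.2 and 168 ± 23.4 CPM, with 0.15 (SE 0.060). NDUFB4, also of the membrane arm, was at 94.1 ± 9.92 and 101 ± 15.6 CPM, with 0.12 (SE 0.051). For NDUFS7, the core subunit that hands electrons to ubiquinone, the means were 118 ± 10.9 and 121 ± 16.2 CPM, with 0.13 (SE 0.058). Each of these differences was smaller than the SD between piglets, and their adjusted p in edgeR lay between 0.656 and 0.705, so none was called. With the counts of littermates summed, NDUFAB1 was at 0.063 (SE 0.067) and NDUFB9 at 0.096 (SE 0.074). NDUFB4 was then at 0.085 (SE 0.074) and NDUFS7 at 0.038 (SE 0.069).

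These values moved with the surrogate variables, libraries and litters included. With 2 surrogate variables, with none, or with cohort in their place, 1 member was higher on HF at an unadjusted edgeR p under 0.05. That is a smaller share than among all genes in each of those fits. Without AGA HF replicate 2 the median over members was 0.019, and 1 member (against 3.69% of all genes) was higher on HF at an unadjusted edgeR p under 0.05. NDUFAB1 was then at 0.05, NDUFB9 at 0.09, NDUFB4 at 0.06 and NDUFS7 at -0.048. Without AGA CON replicate 2 the median was 0.05 with 5 such members (against 4.51%), and NDUFAB1 and NDUFS7 were at 0.06 and 0.04. Without AGA HF replicate 4 there were 4 such members (against 3.03%), without litter 1, 7 or 9 there were 2, 2 and 3 (against 3.34%, 2.71% and 3.05%), and without litter 8 or 11 there were 11 and 12 (against 3.91% and 4.18%). In fits of the cohorts apart, without surrogate variables, the median was 0.09 with 2 such members in the first cohort (against 3.11% of all genes) and -0.013 with 0 in the second (against 2.73%), a difference that was not tested. The litter fit had 2 such members, NDUFA12 and NDUFA6 (against 1.69% of all genes), the latter on 0 to 15 counts. No member had all HF litter means above all CON litter means, which held for 0.0980% of all genes.

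**Figure D3:**
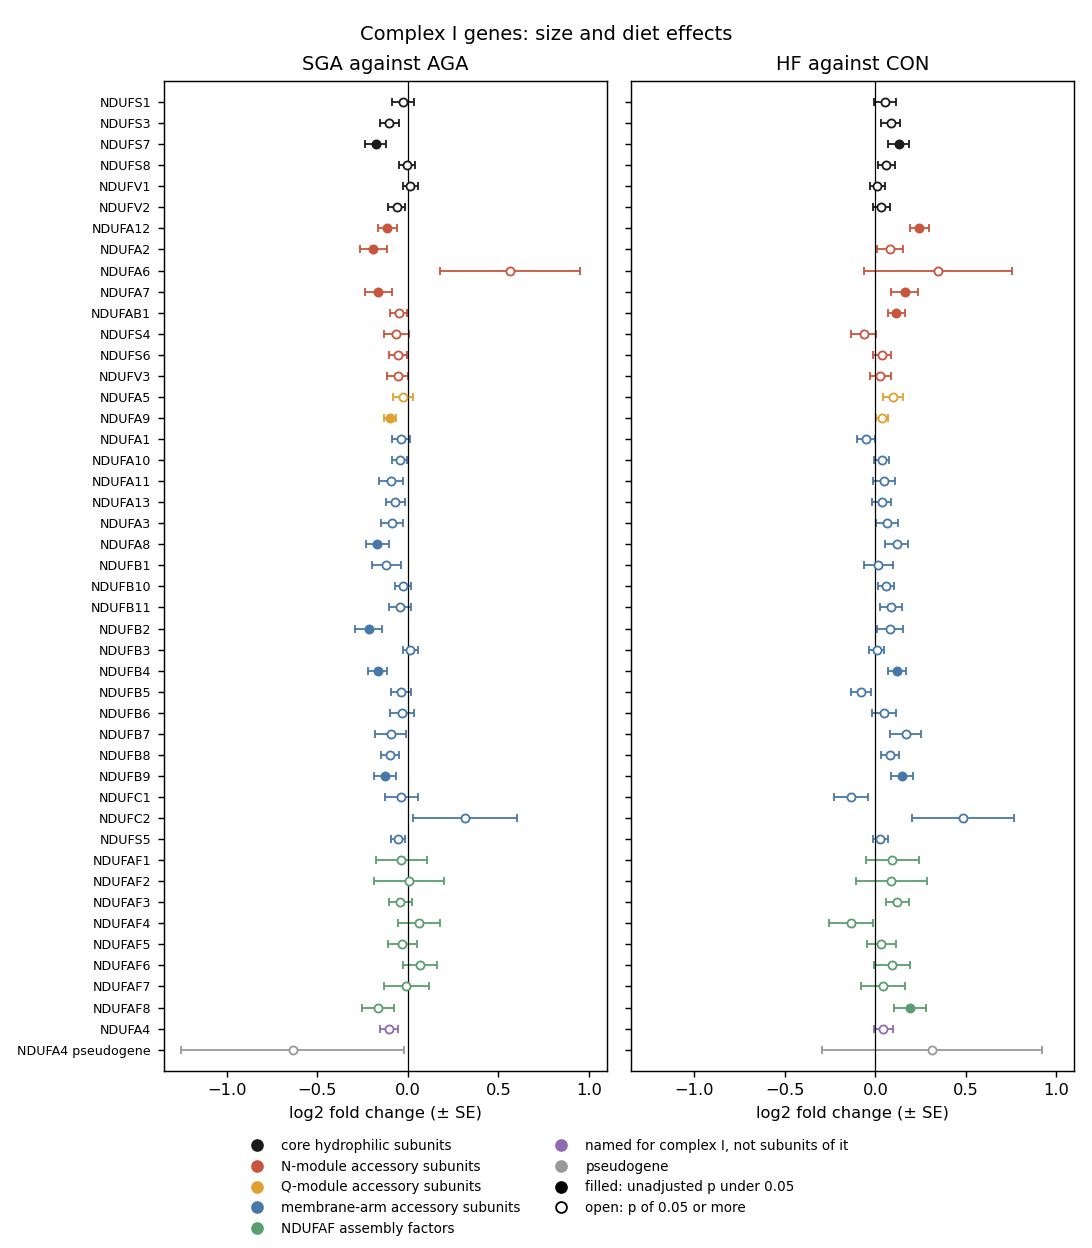
Log2 fold change with SE of the tested members (1 is not drawn), SGA against AGA on the left and HF against CON on the right, coloured by role and filled where the unadjusted p was under 0.05. Of all 47, on the left 40 lay below 0 and 9 had such a p, and on the right 41 lay above 0 and 7 had such a p; NDUFA6, NDUFC2 and the NDUFA4 pseudogene, with few counts, have wide errors.

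Between sizes no member was called at an FDR p under 0.4 by edgeR, DESeq2 or limma voom, where edgeR called 0.312% of all genes higher and 0.165% lower in SGA. Some members were called in other edgeR fits, 6 with the FDR over this contrast alone (7.35% of all genes in either direction), 4 without litter 5 (7.86%), 3 without litter 12 (2.55%), 2 without litter 8 (2.04%) and 1 without litter 4 (3.31%). At an unadjusted edgeR p under 0.05, 9 members were lower in SGA (19.1%, against 4.95% of all genes) and 0 were higher (against 5.60%). The median over the 47 was -0.06, and 40 lay below 0. The median of all genes was -0.0023, with 49.2% above 0.

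The smallest p-values in that contrast belonged to NDUFB4, NDUFS7, NDUFB2, NDUFA9 and NDUFA8. In AGA piglets NDUFB4 ranged from 80.4 to 111 CPM on CON (median 97.4) and from 90.4 to 137 CPM on HF (median 107). In SGA piglets it ranged from 83.2 to 101 CPM on CON (median 91.2) and from 84.2 to 105 CPM on HF (median 89.9). The high values of NDUFB4 were in AGA piglets, and the sizes overlapped on both diets. The log2 fold change was -0.17 (SE 0.051, edgeR adjusted p = 0.494), and NDUFB4 was higher in the SGA littermate in 3 of 12 litters.

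NDUFB2, a small subunit of the membrane arm, was at 26.1 ± 3.42 CPM in SGA and 29.7 ± 4.08 CPM in AGA (SD, n = 12), with -0.22 (SE 0.073). NDUFA8, which faces the intermembrane space, was at 95.1 ± 9.89 and 107 ± 15.3 CPM, with -0.17 (SE 0.062). Both genes were higher in the SGA littermate in 2 of 12 litters. NDUFS7 was at 114 ± 10.1 CPM in SGA and 125 ± 15.0 CPM in AGA, with -0.18 (SE 0.058), and NDUFA9 at 104 ± 3.66 and 109 ± 10.6 CPM, with -0.10 (SE 0.034). NDUFS7 was higher in the SGA littermate in 3 of 12 litters and NDUFA9 in 4. For NDUFB2, NDUFA8, NDUFS7 and NDUFA9 the adjusted p in edgeR was 0.564, 0.608, 0.557 and 0.581. The SD of NDUFA9 was smaller in SGA than in AGA piglets, a difference that was not tested. Without AGA HF replicate 2 the size difference was -0.048 (SE 0.051) for NDUFS7 and -0.10 (SE 0.060) for NDUFA8. It was then -0.16 for NDUFB2, -0.13 for NDUFB4 and -0.09 for NDUFA9.

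By role, each group of members held some below 0 in SGA, where 50.8% of all genes lay below 0 and 4.95% were lower at an unadjusted edgeR p under 0.05. Of the 20 membrane-arm subunits 18 lay below 0 and 4 had an unadjusted p under 0.05. Of the 8 N-module accessory subunits 7 lay below 0, and NDUFA2, NDUFA7 and NDUFA12 had such a p, at -0.19, -0.16 and -0.12. Without AGA HF replicate 2 these 3 were at -0.12, -0.046 and -0.07. Of the core subunits NDUFS7 alone had such a p, with NDUFS3 at -0.10, NDUFV2 at -0.06, NDUFS1 at -0.03, NDUFS8 at -0.0042 and NDUFV1 at 0.01. Of the 8 NDUFAF assembly factors 5 lay below 0, and none had such a p. Differences between the roles were not tested.

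With the litter as a block, which sets each SGA piglet against its own littermate, again no member was called, where 2.57% of all genes were called in either direction. At an unadjusted edgeR p under 0.05, 7 members were lower (14.9%, against 6.28% of all genes) and 0 were higher (against 6.11%). NDUFA2, NDUFA8, NDUFB2, NDUFB4 and NDUFS7 had such a p in both fits. NDUFA7 (-0.12, SE 0.065), NDUFA9 (-0.07, SE 0.046), NDUFA12 (-0.10, SE 0.067) and NDUFB9 (-0.12, SE 0.056) no longer had one with the block, while NDUFB1 and NDUFS3 then did. NDUFA8 came nearest to a call, at -0.17 (SE 0.053, edgeR adjusted p = 0.404), followed by NDUFS3, which builds the base of the Q module, at -0.13 (SE 0.049, edgeR adjusted p = 0.484). NDUFA8, NDUFS3, NDUFB2, NDUFB9 and NDUFAF3 were lower in the SGA littermate in 10 of 12 pairs. These 5 members (10 or more pairs, against 4.92% of all genes) had no counterpart higher in SGA in as many pairs (against 3.80%).

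The cohorts were also fitted apart for size, without surrogate variables. In the first the median over members was -0.13 with 8 lower at an unadjusted edgeR p under 0.05 (against 3.53% of all genes), and in the second it was -0.0038 with 0 (against 3.93%). The difference between the cohorts was not tested. Without AGA CON replicate 2, and likewise without AGA HF replicate 2, 4 members were lower at such a p (against 4.59% and 5.36% of all genes). Without litter 4 there were 5, and without litter 8 there were 14 (against 4.85% and 5.75%). With 2 surrogate variables in place of 5 it was 0 (against 5.56%), and the median was -0.02.

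No member was called for the interaction of size and diet, where 0.0490% of all genes were called, and the median over members was 0.02, with 27 of 47 above 0. This sign turned with the litter as a block, where the median was -0.09 and 8 of 47 lay above 0 (48.8% of all genes), and 14 of the 28 alternatives kept it, with medians from -0.13 to 0.04. At an unadjusted edgeR p under 0.05 there was 1 member, NDUFAF7, with a log2 value of -0.50 (SE 0.23, edgeR adjusted p = 0.714), where 1.91% of all genes were lower and 2.09% higher at such a p. On HF, NDUFAF7 was at 3.94 ± 0.657 CPM in AGA and 3.58 ± 0.886 CPM in SGA piglets (SD, n = 6). On CON it was at 3.51 ± 0.556 CPM in AGA and 4.09 ± 0.716 CPM in SGA piglets. With 18 to 46 counts per library, these groups overlapped throughout. With the litter block NDUFAF7 was at -0.38 (SE 0.25, edgeR adjusted p = 0.743) and no longer had such a p. NDUFS6, a zinc-binding subunit of the N module, at -0.28 (SE 0.13, edgeR adjusted p = 0.600), and the NDUFA4 pseudogene then did (against 1.73% of all genes lower and 2% higher). The pseudogene had 138 counts in SGA CON replicate 6, 50 in AGA HF replicate 3 and 1 to 8 in every other library. No member was called for the interaction with the block (0.276% of all genes).

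Of the 4 pairwise comparisons, which share piglets with the contrasts above, 1 called a member. NDUFA12 rose in SGA HF against SGA CON piglets, by 0.31 (SE 0.071, edgeR adjusted p = 0.308), where 0.0919% of all genes were called. The means of these groups were 111 and 96.4 CPM, the latter with SGA CON replicate 6 at 77.0 CPM. The alternatives covered size, diet and their interaction, so this pairwise call was not checked in them. No member was called in AGA HF against AGA CON (0.0674% of all genes), SGA CON against AGA CON (0.129%) or SGA HF against AGA HF (0.288%). At an unadjusted edgeR p under 0.05, 7 members were lower in SGA on CON (against 3.47% of all genes) and 4 on HF (against 3.25%), while 3 were higher on HF in AGA piglets (against 2.79%) and 4 in SGA piglets (against 2.74%). With each SGA piglet set against its littermate by the litter block, the 7 on CON became 1, NDUFA8 (against 4.46% of all genes), and the 4 on HF became 6, NDUFA8, NDUFB1, NDUFB2, NDUFB4, NDUFS3 and NDUFV2 (against 4.13%). No member was called with the block on CON (1.26% of all genes) or on HF (0.888%). The median over members on CON was -0.07 without the block and -0.0082 with it, and on HF it was -0.08 and -0.11. In AGA HF against AGA CON piglets NDUFA12 stood at 0.18 (SE 0.072, edgeR adjusted p = 0.660), and in SGA CON against AGA CON at -0.18 (SE 0.071, edgeR adjusted p = 0.645). The difference between its diet effects in SGA and AGA piglets was 0.13 (SE 0.098, edgeR adjusted p = 0.854), so that the effects were not shown to differ. SGA HF piglets had the narrowest spread of NDUFA12 of the 4 groups, at an SD of 6.79 CPM.

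Per library, the mean deviation of the 47 members from their own means ran from -0.21 in AGA CON replicate 2 to 0.21 in AGA HF replicate 2 on the log2 scale. Group means were 0.07 in AGA HF, -0.01 in SGA CON, -0.02 in SGA HF and -0.04 in AGA CON (SD from 0.05 to 0.13, n = 6), and the groups overlapped. On CON the mean of SGA piglets was thus above that of AGA piglets, while the fitted median for SGA CON against AGA CON was below 0. Among SGA piglets the mean was slightly lower on HF than on CON, while the fitted median for SGA HF against SGA CON was 0.06. In that fit 32 of 47 members lay above 0 (50.4% of all genes). Among AGA piglets the mean was higher on HF, and the fitted median was also 0.06. The 86 cytosolic ribosomal protein genes had their own highest mean deviation, 0.42, in the same AGA HF replicate 2. In AGA CON replicate 2 they were at 0.14, unlike the complex I genes.

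**Figure D4:**
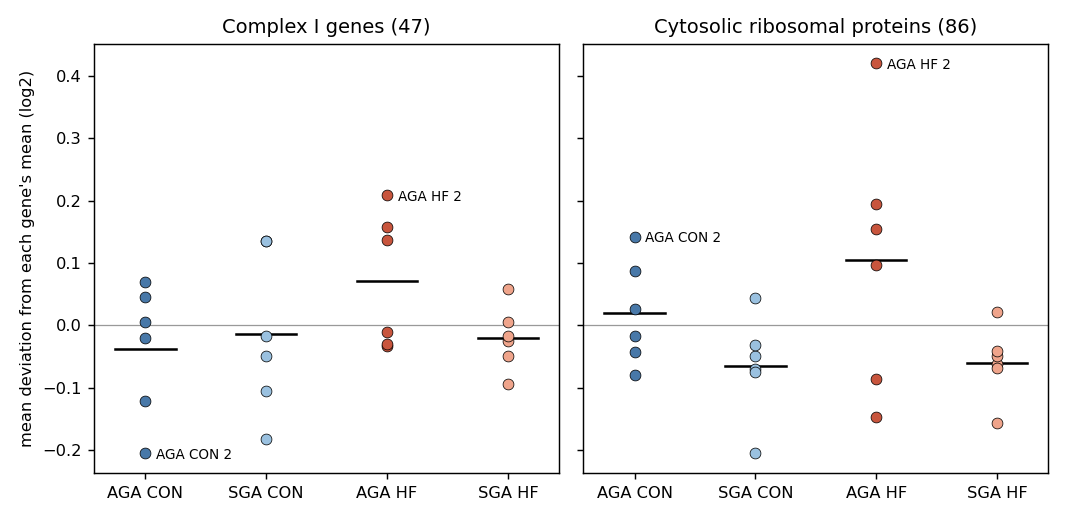
Mean log2 deviation of each library from the genes' own means, for the 47 complex I genes on the left and 86 cytosolic ribosomal protein genes on the right; points are piglets and bars are group means. AGA HF replicate 2 is highest in both, at 0.21 and 0.42, and AGA CON replicate 2 is lowest for complex I at -0.21.

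Other genes of mitochondria and ribosomes had medians of the same sign. In SGA the median was -0.08 over 35 genes of complexes II to V, -0.06 over 68 mitochondrial ribosomal proteins and -0.10 over 86 cytosolic ribosomal proteins, against -0.06 over complex I. On HF these medians were 0.04, 0.05 and 0.08, against 0.06 over complex I. Over all genes tested the medians were -0.0023 in SGA and 0.0020 on HF. Of the 86 cytosolic ribosomal proteins 6 were called lower in SGA, and of the other lists 0, where 0.165% of all genes were called lower. No test set complex I apart from these lists, and no shift here is called particular to it.

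Of the oligodendrocyte markers, 6 of 6 lay below 0 in SGA, with a median of -0.17, none was called and none was at 0 in all libraries. Their sum, led by MBP, the main protein of compact myelin, ranged from 16531 to 21081 CPM in AGA CON and from 12240 to 22707 CPM in AGA HF piglets. It ranged from 11211 to 16954 CPM in SGA CON and from 10408 to 20572 CPM in SGA HF piglets. The sums were thus lower in SGA with overlap on both diets. The neuron markers had a median of 0.02 in SGA, with 5 of 7 above 0, and none of the 6 marker lists held a call for size or diet. The markers with an unadjusted edgeR p under 0.05 in SGA were SLC17A7, at 0.14 (SE 0.043, edgeR adjusted p = 0.506), and CLDN11, a tight junction protein of myelin, at -0.22 (SE 0.11, edgeR adjusted p = 0.725).

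On HF the medians of all 6 marker lists lay below 0, while that of complex I lay above it. Of the astrocyte markers 6 of 7 lay below 0, with a median of -0.07, among them GFAP, the most abundant, at -0.11 (SE 0.050, edgeR adjusted p = 0.714). Their sum ranged from 8574 to 12679 CPM in AGA CON, 8065 to 9572 CPM in SGA CON, 7687 to 12261 CPM in AGA HF and 8727 to 10125 CPM in SGA HF piglets, with overlap. Of the endothelial markers 5 of 5 lay below 0 (median -0.06), among them FLT1, a receptor for vascular growth factor, at -0.18 (SE 0.074, edgeR adjusted p = 0.676). Of the oligodendrocyte markers 5 of 6 lay below 0 (median -0.05), with MBP at -0.22 (SE 0.10, edgeR adjusted p = 0.714). The group medians of their sum were instead higher on HF. They were 20086 against 19294 CPM in AGA and 16267 against 14962 CPM in SGA piglets, with overlap. The mean sum was higher on HF in SGA piglets (16154 against 14501 CPM) and lower in AGA piglets (18681 against 18976 CPM). The fitted medians of the other lists were -0.03 over 7 neuron markers (4 below 0), -0.03 over 7 microglia markers (5 below 0) and -0.28 over the 4 choroid plexus markers tested (3 below 0), a list led by FOLR1 at 29.0 CPM. GFAP, FLT1 and MBP were the markers with an unadjusted edgeR p under 0.05 on HF. Fewer cells of a type and less RNA per cell cannot be told apart in whole hippocampus, and the part of cell makeup in the complex I values was not tested.

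Of 14 further assembly factors 10 had counts and none was called. In SGA 8 of 10 lay below 0 (median -0.04, against 50.8% of all genes below 0), and on HF 8 of 10 lay above 0 (median 0.03, against 50.8% of all genes above 0). The most abundant was OXA1L, which inserts proteins into the inner membrane, at 149 CPM (-0.04, SE 0.040 in SGA and -0.05, SE 0.040 on HF). TMEM126B, of the complex that assembles the membrane arm, had the smallest p in SGA, at -0.21 (SE 0.099, edgeR adjusted p = 0.736), TMEM186 stood at -0.18 (SE 0.10) and AIFM1 at -0.07 (SE 0.059). On HF, LYRM2 stood at 0.11 (SE 0.060, edgeR adjusted p = 0.769).

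Among 9 regulators of mitochondrial genes, 8 were tested and none was called for size or diet. In SGA 6 of 8 lay below 0 (median -0.08), and on HF 4 of 8 lay above 0 (median 0.03). ESRRA, a nuclear receptor that drives oxidative genes, was the most abundant at 62.9 CPM, with -0.06 (SE 0.056) in SGA and -0.04 (SE 0.056) on HF. TFAM, which packages mitochondrial DNA, was at 0.68 CPM and 0.60 (SE 0.28, edgeR adjusted p = 0.724) in SGA. GABPA, a factor that binds promoters of respiratory genes, stood at 0.10 (SE 0.074) in SGA and -0.15 (SE 0.075) on HF. The 7 subunits of complex I encoded by mitochondrial DNA had no entry among the genes with counts and were not analysed here.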

How the data were processed

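The authors deposited whole-number read counts per gene for each library, without normalization. Per the submitters' processing notes these came from bcl2fastq 2.17.1.14, Trimmomatic 0.33, STAR 2.5.2a and featureCounts of Subread 1.5.0. Per the study's methods reads were aligned to Sscrofa10.2 and counted by strand. The entry without an identifier (0.613 to 1.62% of counts) was left out. Symbols came from a name table of Sscrofa11.1, which matched 23036 of 38882 genes, of which 15993 had a symbol. NDUFB8 and NDUFAB1 lie on other chromosomes in that table than in the files.

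Counts were TMM-normalised after the filter and fitted with edgeR 4.0.16 (quasi-likelihood, R 4.3.3) on the 4 groups, sex and 5 surrogate variables from sva 3.50.0 (log2 CPM, prior count 2). The Benjamini-Hochberg FDR covered 7 contrasts together, with a call at FDR p under 0.4. The median SE of a log2 fold change over all genes was 0.105 for size, 0.105 for diet and 0.196 for the interaction. Floors cover counting error only. The fits were tested on simulated data. DESeq2 1.42.0 and limma 3.58.1 voom were alternatives, with other filters, scalings, covariates and left-out litters.

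Pairing comes from the labels, which name a shared litter. Deviations from group means correlated by 0.154 on average between littermates (0.0144 to 0.329) and by 0.031 over 24 other pairs of a diet and cohort.

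Members and lists were chosen with earlier results of these data known. Named genes were NDUFA12 and NDUFAF2, the 7 core subunits (1 is not reported here), members called in any contrast, up to 5 in each direction of size, diet and interaction with the smallest unadjusted p under 0.05, the 4 highest and 4 lowest levels per kb, untested members, and for outside lists up to 3 with the smallest p and the most abundant. NDUFA2, NDUFA7, NDUFAF3, NDUFAF8, NDUFB1, NDUFC2, NDUFS6 and the markers SLC17A7, CLDN11, GFAP, FLT1 and MBP were named after their values were seen. Roles are simplified, since some subunits touch several modules.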

Additional observations from a re-analysis of the deposited data

Results flagged for a closer look

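Groups of 6 piglets were searched for 1 value far from the other 5, over the named genes that were tested. Of 84 sets of a gene and a group, 9 had such a value, where chance gives about 1 in 20, or 4.2 sets. The NDUFA4 pseudogene was at 22.7 CPM in SGA CON replicate 6 (the next value was 0.98 CPM) and at 6.45 CPM in AGA HF replicate 3 (next 1.05 CPM). NDUFS1 was low in AGA HF replicate 4, at 64.2 CPM (next 80.3 CPM), and in SGA HF replicate 5, at 60.1 CPM (next 78.2 CPM). NDUFA9 was low in SGA HF replicate 4, at 95.4 CPM (next 103 CPM).

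High values were those of NDUFAB1 in SGA CON replicate 4, at 143 CPM (next 119 CPM), and of NDUFB10 in SGA HF replicate 5, at 242 CPM (next 215 CPM). In AGA CON replicate 1, NDUFB9 was at 188 CPM (next 164 CPM) and NDUFS3 at 107 CPM (next 92.1 CPM).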

How the results depend on the processing

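Over 28 alternatives NDUFA12 was higher on HF in all, between 0.15 and 0.25 on the log2 scale, and was called in 17 (FDR p from 0.0329 to 0.999). It lost the call with 2 surrogate variables (0.19), none (0.15), cohort in their place (0.15), littermate counts summed (0.15), cohort 1 alone (0.15), cohort 2 alone (0.16), and among fits without 1 litter or library, which ran from 0.15 to 0.25, without litter 1, 2, 7 or 9 or AGA HF replicate 2. The count called on HF was 0 in those fits and ran from 0 to 7 without 1 litter or library. The 7 came without litter 5, and since the share of all genes called there is not given here, no excess is read from it. Members higher on HF at p under 0.05 fell from 7 (3.59% of all genes) to 1 with 2, none or cohort in place of surrogate variables (3.37%, 2.68% and 2.93%), to 2 with summed counts and in cohort 1 (1.69% and 3.11%), and to 0 in cohort 2 (2.73%), and ran from 1 (3.69%) to 12 (4.18%) without 1 litter or library. Members lower in SGA at such a p numbered 0 with 2 surrogate variables (5.56%), 5 with none or with cohort (5.46% and 5.83%), 0 in cohort 2 (3.93%) and from 4 (4.59% and 5.36%) to 14 (5.75%) without 1 litter or library. Calls for size became 6 with the FDR over that contrast alone (7.35% of all genes) and 0 to 4 without 1 litter or library, and those for the interaction stayed at 0. The median on HF was -0.013 in cohort 2. Medians without 1 litter or library ran from -0.07 to -0.04 in SGA, 0.019 to 0.08 on HF and -0.03 to 0.04 for the interaction. NDUFAB1 (-0.0033) and NDUFS7 (-0.013) reversed on HF in cohort 2, as did NDUFA7 (-0.0036, with up to 0.20 without 1 litter) and NDUFS7 (-0.048, up to 0.15) without AGA HF replicate 2. Leaving out AGA CON replicate 2, AGA HF replicate 2 or 4 and TMM factors from before the filter were chosen after seeing the data. The causes were not tested.

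With the litter as replicate block the median over members was -0.07 for size and -0.09 for the interaction, with 7 members lower in SGA at p under 0.05 and 0 calls; the block changed no call, and where it turned a median or moved a count the values stand with the result. Diet varies between litters, so it has no paired analysis. Depth limits NDUFA6, NDUFC2, NDUFAF7, NDUFA4L2, TFAM and the NDUFA4 pseudogene.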
